A study of Mus musculus with 12 samples.

Results

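A set of 10 genes of the Notch pathway was examined in embryonic mouse hearts, the 4 receptors *Notch1*, *Notch2*, *Notch3* and *Notch4*, the 3 ligands *Dll4*, *Jag1* and *Jag2* and the 3 transcriptional targets *Hey1*, *Hey2* and *Heyl*. They were chosen by name, 10 of the 20368 genes in the deposited table, and all 10 were abundant enough to be tested in every comparison. RNA-Seq had been performed on whole hearts of *Mesp1Cre;Hira-/fl* mutants and *Mesp1Cre;Hira+/fl* controls (Cre control) at E11.5 and E12.5, on a CD1 background, with 3 libraries in each of the 4 groups. HIRA is a histone chaperone that deposits the histone variant H3.3. All 12 hearts carried *Mesp1Cre*, which recombines in the early mesoderm that forms most of the heart, so controls had lost 1 of their *Hira* alleles in that lineage and kept the wild-type one, while mutants carried a null allele and lost the floxed one. Cells that reach the heart from other lineages, such as neural crest, kept the *Hira* alleles they were born with. The labels do not say whether each library came from 1 heart, so the p-values measure the spread between these libraries.

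Notch receptors are transmembrane proteins that are cleaved when a ligand on a neighbouring cell binds them. The freed intracellular domain enters the nucleus, joins the DNA-binding protein RBPJ and activates genes such as those of the HEY and HES families, which encode transcriptional repressors. In the developing heart the pathway is known for its roles in trabeculation, in the endothelial-to-mesenchymal transition of the cushions and in the formation of coronary vessels and outflow tract smooth muscle.

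RBPJ recognises the word GTGGGAA, which was searched on both strands (TTCCCAC on the other) in the RefSeq promoters of mouse build GRCm38.p6, each running from 250 bases before to 50 bases after the start. Of the 10 genes, 8 had a promoter entry; *Hey1* and *Heyl* had none. The word was present in 1 of these 8 promoters, that of *Hey2*, and in 6.38% of all 32851 promoters. The *Hey2* promoter lies at chr10:30842734-30843033 on the minus strand and that of *Notch2* at chr3:98013288-98013587 on the plus strand. *Hey2* is shown for its matches, in capitals, which begin 207 bases and 4 bases before the start, and *Notch2* as the receptor whose level differed between the genotypes.
Hey2: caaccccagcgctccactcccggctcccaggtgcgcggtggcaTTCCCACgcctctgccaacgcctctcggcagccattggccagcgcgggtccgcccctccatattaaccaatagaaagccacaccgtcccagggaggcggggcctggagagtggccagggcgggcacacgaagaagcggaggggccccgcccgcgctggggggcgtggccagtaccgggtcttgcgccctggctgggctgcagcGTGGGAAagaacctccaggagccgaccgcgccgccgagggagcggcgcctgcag
Notch2: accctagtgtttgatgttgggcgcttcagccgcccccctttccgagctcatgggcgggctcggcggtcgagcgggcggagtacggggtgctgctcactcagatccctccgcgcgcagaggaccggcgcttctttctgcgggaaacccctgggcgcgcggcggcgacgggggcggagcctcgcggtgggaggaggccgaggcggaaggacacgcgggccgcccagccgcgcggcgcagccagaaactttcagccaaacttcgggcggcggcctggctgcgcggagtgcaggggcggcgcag
Neither the repeat GAGAGAGA (TCTCTCTC on the other strand), present in 3.93% of all promoters, nor the E-box CACGTG, present in 7.15%, was found in any of the 8 promoters. A match describes the letters only and is not a binding site.

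Library totals ran from 11994148 to 17483982 counts, which leaves 62 counts or more for each of the 10 genes in each library, so none was limited by detection. The shallowest library, E11.5 mutant 3, also stood furthest from the others of its group, with a chi-square per degree of freedom of 43.2 and 49.6 against them, where the other pairs of replicates had 6.71 to 28.8. Judged from 4 Y-linked genes, 3 of 3 E11.5 controls were male against 1 of 3 libraries in each other group, so sex and genotype are partly tied at E11.5 and sex and stage in the controls. Whole-gene *Hira* values were 68.6 to 86.2 CPM (counts relative to the TMM-scaled library total) in E11.5 controls, 57.0 to 73.7 in E11.5 mutants, 60.7 to 86.5 in E12.5 controls and 70.4 to 79.7 in E12.5 mutants. These counts cover the whole gene rather than the floxed part, and do not check the deletion.

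Per length, *Hey2*, which encodes a repressor of compact ventricular myocardium, stood far above the other members. Its mean was 54.0 ± 4.30 RPKM in E11.5 controls and 58.0 ± 5.86 RPKM in E12.5 controls (SD, n = 3 for each group here and below), where RPKM is CPM divided by gene length in kilobases. In E11.5 controls *Hey1* followed at 13.7 ± 3.65 RPKM, and its libraries overlapped with none of the other genes. *Jag1* (9.15 ± 1.97 RPKM), *Notch1* (7.13 ± 2.27), *Notch3* (6.76 ± 1.27) and *Notch2* (5.40 ± 0.53) formed a middle set in which each overlapped with the next. *Dll4* (3.93 ± 0.48 RPKM), *Notch4* (3.52 ± 0.41) and *Jag2* (3.14 ± 0.69) formed a lower set of the same kind, and *Heyl* was lowest at 1.81 ± 0.34 RPKM. In E12.5 controls *Hey1*, at 8.19 ± 3.51 RPKM, had joined the middle set, while *Hey2* at the top and *Heyl* at the bottom still overlapped with no neighbour. E12.5 mutants kept *Hey2* and *Heyl* at the ends, and *Notch2*, 6th of the 10 in controls at both stages, was 8th in mutants at both stages.

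**Figure D1:**
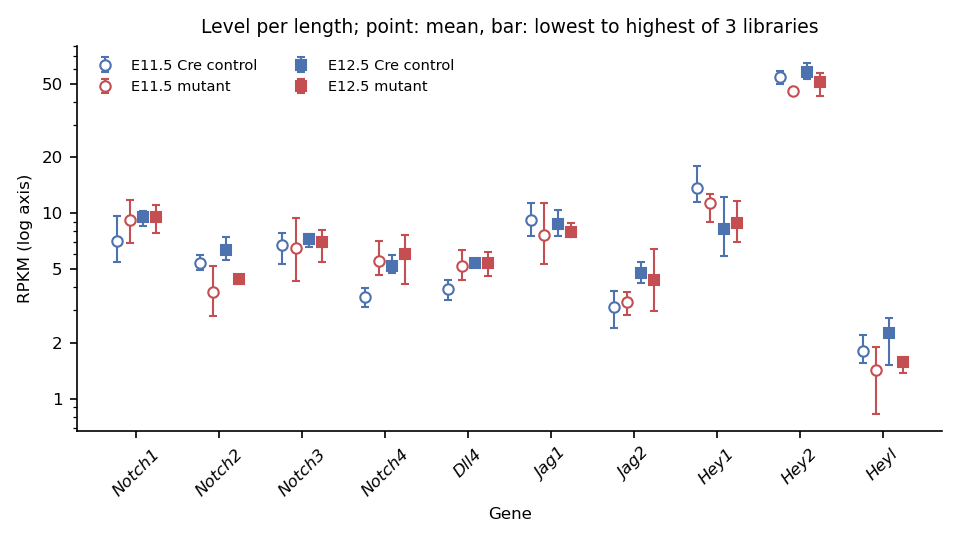
Levels of the 10 genes per length (RPKM, log axis) in the 4 groups, each point the mean of 3 libraries and each bar the range from the lowest to the highest. *Hey2* lies between 42.6 and 64.5 RPKM in all 12 libraries and *Heyl* below 2.75, with the receptors and ligands in between.

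*Notch2* was the one member that differed between the genotypes. It encodes a receptor known in the heart for its part in outflow tract and smooth muscle development. At E12.5 its values were 78.2, 63.4 and 59.1 CPM in controls and 47.8, 43.8 and 48.4 CPM in mutants. Every mutant library was below every control library, and the mutants lay close together. *Notch2* fell by 0.51 on the log2 scale (SE 0.11, 0.704-fold, adjusted p = 0.0226, edgeR quasi-likelihood test with Benjamini-Hochberg adjustment over 12256 genes), a change that passed the test but was smaller than the 1.5-fold also asked of a gene called changed. The exact two-sided permutation p was 0.1, the smallest that 3 against 3 libraries allow. At E11.5 the controls had 55.5, 62.8 and 51.8 CPM of *Notch2* and the mutants 54.3, 35.4 and 29.3 CPM. Mutant 1 lay within the range of the controls and the other mutants lay below it. The estimate was -0.51 (SE 0.22) with an adjusted p of 0.459, with a larger error than at E12.5. With sex as a term it was -0.95 at E11.5 (adjusted p = 0.118) and -0.50 at E12.5 (adjusted p = 0.0228).

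With both stages in 1 model *Notch2* fell by 0.52 on the log2 scale (SE 0.13, 0.699-fold, edgeR adjusted p = 0.0248), and the difference between the stage effects was -0.01 (SE 0.26, adjusted p = 0.997). The exact permutation of genotypes within stage, which has 400 arrangements and cannot go below 0.005, gave p = 0.01. Within each sex the groups are too small for a test, with 1 mutant at each stage and 1 E12.5 control among the males. The male libraries had 51.8 to 62.8 CPM in E11.5 controls against 29.3 CPM in the mutant, and 59.1 CPM in the E12.5 control against 47.8 in the mutant. The female E12.5 libraries had 78.2 and 63.4 CPM in controls against 43.8 and 48.4 in mutants. With sex as a term the both-stage change was -0.59 (adjusted p = 0.0146). The call was close to its threshold and depended on single libraries. At E12.5 it was lost without control 1 (adjusted p = 0.0633), mutant 1 (0.0617) or mutant 2 (0.0745), with limma at each of 3 pseudocounts (0.0563 to 0.0581) and with all 12 libraries in 1 fit (0.235). It was lost over both stages without E11.5 control 1 (0.0547) or 2 (0.0548), E12.5 control 1 (0.0791) or 2 (0.0511), or E12.5 mutant 1 (0.063) or 2 (0.0668). The fold change stayed between -0.38 and -0.64 in these fits and in the other fits that left out 1 library of the E12.5 or both-stage comparison.

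Marker totals of some other cell types were also lower in mutants. The summed level of 5 cushion mesenchyme genes was 1428 to 1633 CPM in E11.5 controls against 1076 to 1381 CPM in mutants, and 1151 to 1717 against 1008 to 1134 CPM at E12.5. Macrophage genes, 6 of 6 detected, summed to 25.8 to 64.1 CPM in E11.5 controls and 8.69 to 13.9 CPM in mutants, and to 56.3 to 80.7 against 34.2 to 48.9 CPM at E12.5. Both totals were lower in all mutants of a stage. Of the 5 cushion genes 0 passed the edgeR test at E11.5 and 1 fell at E12.5, with median log2 fold changes of -0.14 and -0.09, and of the 5 testable macrophage genes 1 fell at E11.5 and 3 fell at E12.5. The total of 6 epicardial genes was 519 to 794 CPM in E11.5 controls against 334 to 452 CPM in mutants and overlapped at E12.5. The erythroid total overlapped at E11.5 and was 3389 to 5228 against 1831 to 2497 CPM at E12.5. The part of these cell types in the *Notch2* result was not tested. Per 1000 CPM of the cushion list, *Notch2* was 31.7 to 44.0 in E11.5 controls and 22.3 to 39.3 in mutants, and 44.1 to 51.4 against 38.7 to 47.4 at E12.5. The genotypes overlapped on that scale, which was chosen after the values had been seen. In whole hearts, fewer cells of a type and less RNA per cell cannot be told apart.

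**Figure D2:**
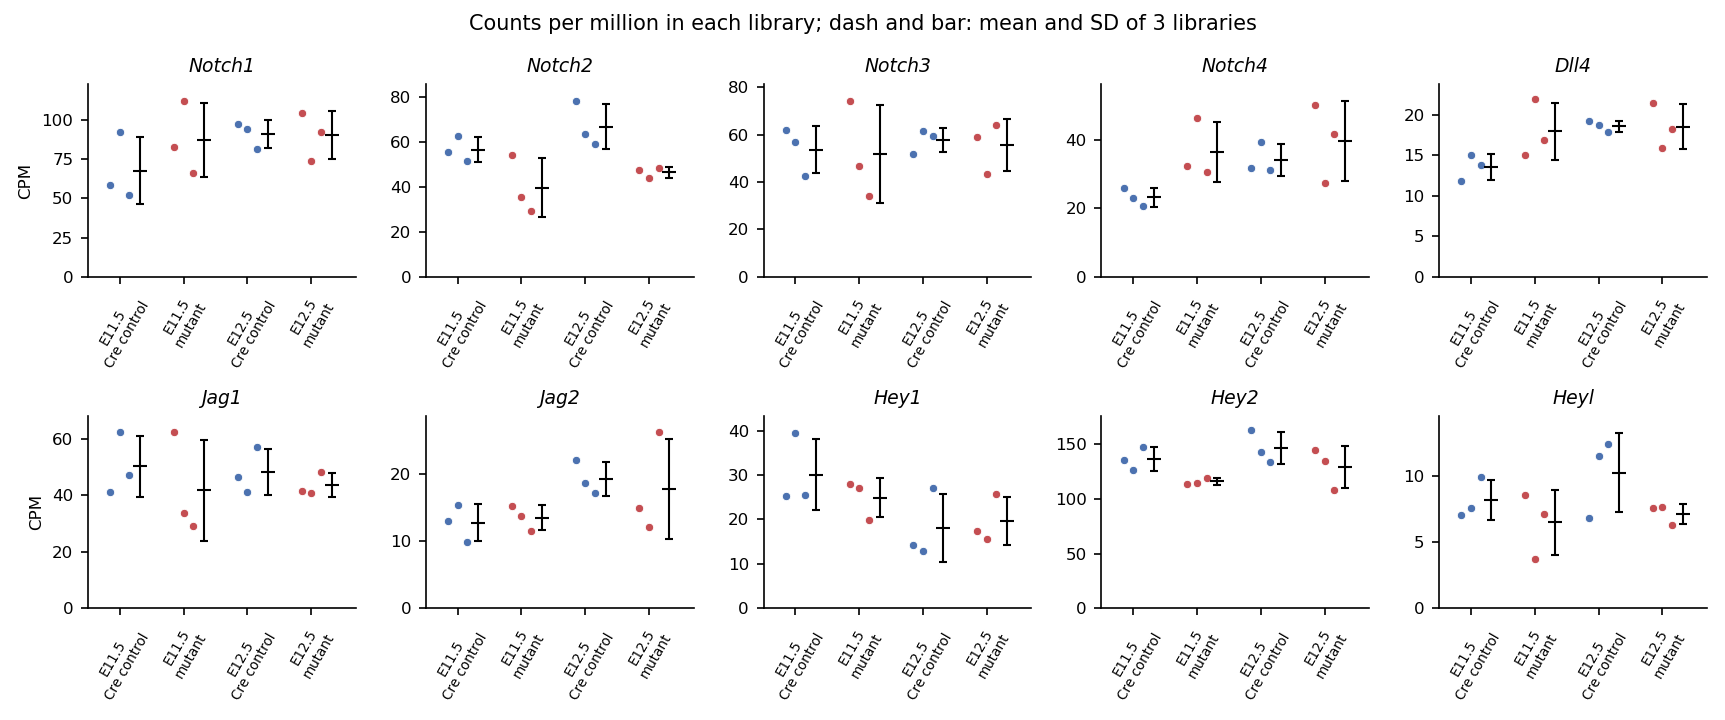
CPM of the 10 genes in each library (blue points Cre control, red points mutant), with the mean and SD of the 3 libraries of a group beside them. The 3 E12.5 mutants lie at 43.8 to 48.4 CPM for *Notch2*, below all 3 controls, and the E11.5 mutants lie above all controls for *Notch4* and *Dll4*.

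*Notch4*, a receptor largely restricted to endothelium, was higher in the E11.5 mutants and did not pass the test. The controls had 26.0, 23.1 and 20.6 CPM and the mutants 32.5, 46.6 and 30.6 CPM. All mutants were above all controls, and mutant 2 stood well above the rest. On the log2 scale mutants differed by 0.66 (SE 0.18, edgeR adjusted p = 0.228), and with sex as a term by 0.40 (adjusted p = 0.359). At E12.5 the controls had 31.7, 39.5 and 31.3 CPM and the mutants 50.5, 27.3 and 41.9 CPM, with mutant 2 now below all controls. The estimate was 0.23 (SE 0.18, adjusted p = 0.509), over both stages it was 0.43 (SE 0.16, adjusted p = 0.121), and the within-stage exact permutation p was 0.05. Without E12.5 mutant 2 the both-stage change passed the test (0.56, adjusted p = 0.0217).

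*Notch1*, the main receptor of endocardium and endothelium, had 58.7, 92.3 and 52.1 CPM in E11.5 controls and 82.8, 112 and 65.9 CPM in mutants, with overlap. At E12.5 it had 97.6, 94.4 and 81.1 against 104.5, 74.0 and 92.4 CPM, again with overlap. On the log2 scale *Notch1* differed by 0.36 (SE 0.25) at E11.5 and by 0.00 (SE 0.12) at E12.5. *Notch3*, the receptor of mural and smooth muscle cells, showed no difference larger than the spread, with -0.05 (SE 0.27) at E11.5 and -0.04 (SE 0.13) at E12.5. Its E11.5 mutants spanned 34.1 to 74.5 CPM, which enclosed the range of the controls, 42.5 to 62.0 CPM. Per 1000 CPM of 8 mural and smooth muscle markers *Notch3* overlapped at E11.5 and was 30.4 to 32.7 in E12.5 controls against 19.6 to 30.2 in mutants, a scale chosen after the values had been seen. The marker total itself was higher in the E12.5 mutants, at 1959 to 2318 against 1593 to 1952 CPM in controls. Of the 7 testable markers, however, 0 passed the edgeR test higher and 2 lower at E12.5, with a median log2 fold change of -0.24. The total and the median marker thus went in opposite directions, and the part of the total in these values was not tested.

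The share of each receptor in their summed level is given as a description, with no test. Of the summed RPKM of the 4 receptors *Notch2* made up 22.7 to 26.1% in E11.5 controls and 12.0 to 18.3% in mutants, and 20.3 to 25.6% against 14.8 to 19.4% at E12.5. *Notch4* made up 13.3 to 17.0% against 17.5 to 25.1% at E11.5, and 16.5 to 20.1% against 19.2 to 24.9% at E12.5, with overlap at E12.5. The summed receptor level itself overlapped between the genotypes, at 18.9 to 26.3 against 18.7 to 28.2 RPKM at E11.5 and 26.4 to 29.7 against 21.5 to 30.7 RPKM at E12.5.

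Among the ligands none passed the test. *Dll4*, the ligand of arterial and endocardial cells, had 11.8, 15.1 and 13.8 CPM in E11.5 controls and 15.1, 21.9 and 16.9 CPM in mutants. The mutants were above the controls, though mutant 1 and control 2 were almost equal. The estimate was 0.41 on the log2 scale (SE 0.19, edgeR adjusted p = 0.518) and at E12.5 it was 0.01 (SE 0.12), where the controls had 17.9 to 19.2 CPM and the mutants 15.9 to 21.4 CPM. *Jag1*, the ligand of outflow tract and cushions that is mutated in Alagille syndrome, had 41.3, 62.3 and 47.2 CPM in E11.5 controls and 62.3, 33.9 and 29.2 CPM in mutants. As for *Notch2*, mutant 1 was at the level of the controls and the other mutants were below them, giving -0.26 on the log2 scale (SE 0.28, adjusted p = 0.861). At E12.5 the controls had 41.3 to 57.0 CPM of *Jag1* and the mutants 40.7 to 48.4 CPM (-0.13, SE 0.12). *Jag2*, a ligand expressed in part of the endothelium, gave 0.09 (SE 0.21) at E11.5 and -0.11 (SE 0.23) at E12.5. One E12.5 mutant, at 26.2 CPM, was above the *Jag2* controls (17.1 to 22.03 CPM) and the other mutants, at 14.9 and 12.1 CPM, were below them.

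Endothelial markers went with *Notch4*, *Notch1* and *Dll4* in some libraries and not in others. The summed level of 10 endothelial markers was 1013 to 1229 CPM in E11.5 controls and 1214 to 1695 CPM in mutants, highest in the mutant 2 library, which was also the highest for all 3 genes. Among the E11.5 controls, control 2 had the highest total, *Notch1* and *Dll4*. *Notch4*, however, was highest in control 1 (26.0 CPM), where the total was lowest. At E12.5 the total was 1299 to 1345 against 1267 to 1560 CPM, lowest in mutant 2, which was the lowest library for all 3 genes. Per 1000 CPM of these markers *Notch4* was 18.8 to 25.7 in E11.5 controls and 24.5 to 27.5 in mutants, and *Dll4* 11.6 to 13.1 against 12.4 to 13.5, so that both overlapped on that scale. At E12.5 *Notch4* overlapped (23.6 to 29.7 against 21.6 to 32.3), while *Dll4* on that scale was lower in all mutants, at 12.0 to 13.7 against 13.8 to 14.3 in controls. *Notch1* overlapped at both stages. Of the 10 markers, 0 passed the test at E11.5 in either direction, and 1 rose and 2 fell at E12.5. The scaling by marker totals was chosen after the values had been seen, and the part of the endothelial markers in these differences was not tested.

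The 3 HEY genes had lower estimates in mutants at E11.5 and none passed the test. *Hey2* had 135.7, 126 and 148 CPM in E11.5 controls and 114, 114.9 and 119.6 CPM in mutants. The mutants were below all controls and close together, and the difference was small, -0.24 on the log2 scale (SE 0.12, 0.849-fold, edgeR adjusted p = 0.547). At E12.5 the controls had 163, 143 and 134 CPM and the mutants 144.5, 135.3 and 108 CPM, with overlap (-0.17, SE 0.11, adjusted p = 0.416). Over both stages the *Hey2* change was -0.21 (SE 0.08, adjusted p = 0.142), with a within-stage exact permutation p of 0.03.

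*Heyl*, the HEY gene of vascular smooth muscle, had 7.06, 7.62 and 9.96 CPM in E11.5 controls and 8.59, 3.77 and 7.14 CPM in mutants. At E12.5 it had 6.86, 11.6 and 12.4 CPM in controls and 7.56, 7.65 and 6.28 CPM in mutants. The genotypes overlapped through 1 low control at E12.5, with estimates of -0.34 (SE 0.31) at E11.5 and -0.51 (SE 0.22, edgeR adjusted p = 0.199). Per 1000 CPM of the mural and smooth muscle markers *Heyl* overlapped at E11.5 and was 4.31 to 6.36 in E12.5 controls against 2.71 to 3.86 in mutants. Per 1000 CPM of the cushion list, however, *Heyl* overlapped at both stages. Both scales were chosen after the values had been seen. The mural and smooth muscle total was itself higher in the E12.5 mutants, as given above, and its part in the *Heyl* values was not tested. The both-stage log2 fold change of *Heyl* was -0.43 (SE 0.20, edgeR adjusted p = 0.244). *Hey1*, expressed in atrial myocardium and endothelium, had 25.4, 39.4 and 25.6 CPM in E11.5 controls and 27.9, 27.0 and 19.9 CPM in mutants (-0.27, SE 0.21). At E12.5 replicate 3 was high in both genotypes, with 14.2, 13.0 and 27.0 CPM in controls and 17.5, 15.5 and 25.7 CPM in mutants (0.13, SE 0.26). The atrial marker total was also highest in those libraries, at 5235 CPM in control 3 against 4004 and 4029 in the others and at 6354 CPM in mutant 3 against 5081 and 5161, and its part in the *Hey1* values was not tested. At E11.5 the order was different, since mutant 3 had the highest atrial total (7201 CPM) and the lowest *Hey1*, and among the controls control 2 had the lowest atrial total (5272 CPM) and the highest *Hey1*.

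**Figure D3:**
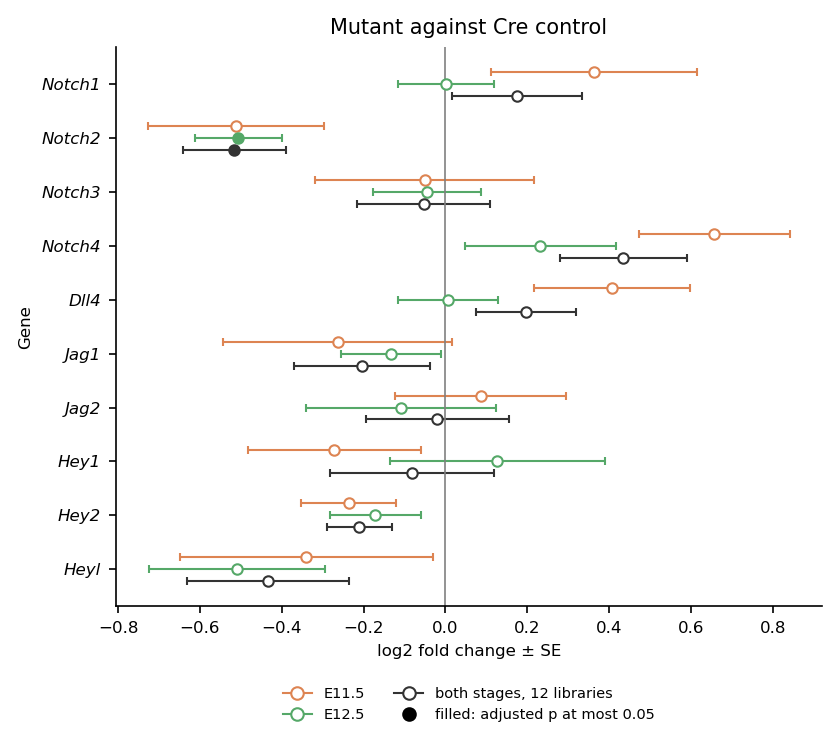
Log2 fold change of mutant against Cre control for the 10 genes, with the standard error of the edgeR fit, at E11.5, at E12.5 and over both stages. Filled points passed the test (adjusted p of at most 0.05): *Notch2* at E12.5 (-0.51) and over both stages (-0.52).

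Set against all genes, the members did not stand out by number. At E11.5 0 of 10 passed the edgeR test, where 0.115% of 12197 genes did, and 2 had an unadjusted p under 0.05 (10.3% of all genes). DESeq2 and limma called 0 of them. Libraries of the genotypes did not overlap for 3 of the 10, *Notch4* and *Dll4* higher and *Hey2* lower, against 16.3% of all genes. At E12.5 1 of 10 passed (5.12% of all genes passed), 2 had an unadjusted p under 0.05 (21.3% of all genes), 0 were also changed 1.5-fold (3.03% of all genes), and the libraries of 1 did not overlap (26.2% of all genes). Over both stages 1 of 10 passed (6.82% of all genes) and 0 were also changed 1.5-fold (3.19% of all genes), with 4 at an unadjusted p under 0.05 (19.4% of all genes). The median log2 fold change of the members was -0.14 at E11.5, -0.08 at E12.5 and -0.07 over both stages, and that of all genes tested was -0.0081, -0.0017 and -0.013. None of the members passed the test for an effect that differed between the stages, and neither did any of 12270 genes in the edgeR fit (percentage 0). Equal effects at the 2 stages are not shown by this. At an unadjusted p under 0.05 0 of the 10 and 4.5% of all genes differed, and DESeq2 called 0 of the 10.

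The other genes of the pathway were taken from a list of 64 names, of which 63 were in the table and 59 abundant enough to test. At E11.5 and at E12.5 0 of the 59 passed the edgeR test in either direction, where 0.115% and 5.12% of all genes passed. At an unadjusted p under 0.05 there were 7 and 12 of the 59, against 10.3% and 21.3% of all genes. The libraries of the genotypes did not overlap for 3 of the 59 higher and 5 lower at E11.5, where 16.3% of all genes did not overlap in either direction. At E12.5 there were 6 higher and 9 lower, against 26.2% of all genes. DESeq2 called 2 at E11.5, *Nrarp* and *Dlk1*, and 0 at E12.5. Over both stages 2 rose and 0 fell, against 3.44% of all genes that rose and 3.38% that fell. The median log2 fold change of the 59 genes over both stages was -0.03. The genes that rose were *Nrarp* and *Dlk2*.

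*Nrarp*, a direct Notch target whose product dampens the pathway by destabilising the cleaved receptor, had 9.41, 8.79 and 7.93 CPM in E11.5 controls and 16.5, 13.9 and 15.6 CPM in mutants. At E12.5 it had 10.8, 12.46 and 11.6 CPM in controls and 14.9, 12.49 and 13.8 CPM in mutants. The mutants were above the controls at both stages, clearly at E11.5 and at E12.5 only by the margin of mutant 2 over control 2. Neither stage alone passed the edgeR test (adjusted p = 0.119 at E11.5 and 0.286 at E12.5). *Nrarp* rose by 0.52 on the log2 scale over both stages (SE 0.12, 1.44-fold, edgeR adjusted p = 0.0176), just under the 1.5-fold also asked, and passed the test in all 20 alternative fits, whose adjusted p ranged from 0.00117 to 0.0428. The male libraries had 7.93 to 9.41 CPM in E11.5 controls against 15.6 in the mutant, and 11.6 CPM against 14.9 at E12.5. The female E12.5 libraries had 10.8 and 12.46 CPM in controls against 12.49 and 13.8 CPM in mutants. *Hes1*, another Notch target in the list and named here after its values had been seen, had 19.2 to 29.7 CPM in E11.5 controls against 27.2 to 37.8 CPM in mutants and 20.3 to 23.5 against 21.8 to 35.9 CPM at E12.5, with overlap at both stages (both stages 0.37, SE 0.13, adjusted p = 0.123). Of the 12 tested targets and cardiac outputs in the list, 1 passed higher and 0 lower over both stages, with a median log2 fold change of -0.01. Some went the other way, such as *Snai2*, also named after its values had been seen. It was lower in all E11.5 mutants (-0.62, SE 0.19, edgeR adjusted p = 0.283) and overlapped at E12.5 (-0.18, SE 0.17).

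*Dlk2*, a delta-like protein that lacks the domain by which the classical ligands activate Notch, was read by few counts. It had 21, 21 and 10 counts in E11.5 controls and 33, 36 and 24 in mutants, and 10, 12 and 6 counts in E12.5 controls and 18, 20 and 18 in mutants. Every mutant library exceeded every control library of its stage. *Dlk2* rose by 0.95 on the log2 scale over both stages (SE 0.23, 1.94-fold, edgeR adjusted p = 0.0221) and passed the test in all 20 alternative fits, with adjusted p from 0.0106 to 0.0483. The other testable ligands of the list, named after their values had been seen, did not pass: *Dll1* gave 0.56 (SE 0.21, adjusted p = 0.133) and the imprinted *Dlk1* -0.74 (SE 0.26, adjusted p = 0.111) over both stages. At E11.5 the *Dlk1* controls had 165, 83.6 and 93.4 CPM and the mutants 60.8, 28.1 and 40.5 CPM without overlap (-1.40, SE 0.32, adjusted p = 0.155). This difference passed with DESeq2 (adjusted p = 0.00181), with the replicate block (0.00944), with all 12 libraries in 1 edgeR fit (0.0199) and without a filter on low counts (0.0486). It did not pass in the other 12 of 16 alternative fits, which include all 6 that left out 1 library. The E12.5 value of *Dlk1* was -0.08 (SE 0.10), and the difference between the stages did not pass the test (1.31, SE 0.38, adjusted p = 0.618).

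The next 3 genes of the list by p over both stages had lower estimates in mutants and did not pass the test. They were *Kat2b*, a histone acetyltransferase of the activation complex (-0.31, SE 0.09, adjusted p = 0.0555), *Pofut1*, which adds the O-fucose that receptors need (-0.23, SE 0.07, adjusted p = 0.0676), and *Mib2*, a ubiquitin ligase of the ligands (-0.22, SE 0.07, adjusted p = 0.069). The *Kat2b* and *Pofut1* libraries did not overlap at either stage, while those of *Mib2* overlapped at E12.5. *Kat2b* had 52.3 to 63.1 CPM in E11.5 controls against 37.6 to 50.8 in mutants and 68.5 to 74.2 against 49.1 to 64.3 CPM at E12.5. *Pofut1* had 51.4 to 53.6 CPM in E11.5 controls against 43.3 to 49.0 in mutants and 52.7 to 57.9 against 38.8 to 50.4 CPM at E12.5. Of all genes, 16.3% did not overlap at E11.5 and 26.2% at E12.5. In the groups of the list for receptor cleavage (9 genes tested), receptor turnover (9), corepressors (8) and the nuclear complex (8), 0 genes passed the edgeR test in either direction over both stages, with 0, 1, 1 and 1 at an unadjusted p under 0.05, against 19.4% of all genes. At that threshold were also 3 of 3 other ligands, 4 of 12 other targets and cardiac outputs, 1 of 6 receptor glycosylation genes and 1 of 4 ligand activation genes.

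**Figure D4:**
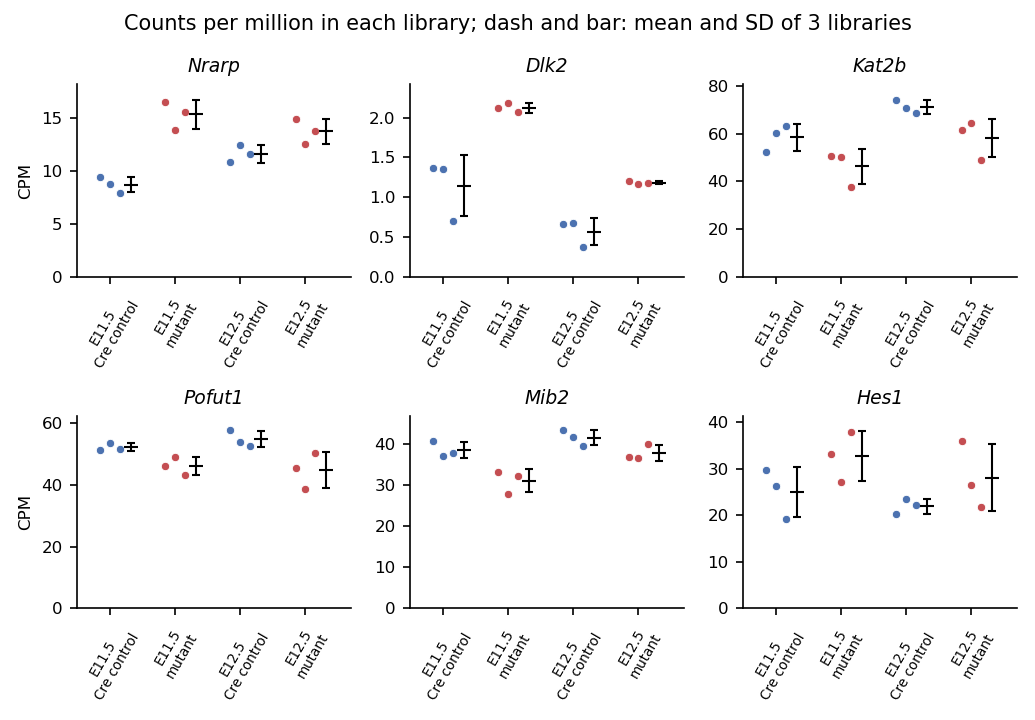
CPM in each library of the 5 pathway genes with the lowest p over both stages and of *Hes1* (blue points Cre control, red points mutant), with the mean and SD of 3 libraries. *Nrarp* and *Dlk2* are higher in all mutants of a stage, with *Nrarp* at 7.93 to 9.41 CPM in E11.5 controls and 13.9 to 16.5 CPM in mutants.

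From E11.5 to E12.5 the controls showed a rise of *Notch4*, from 20.6 to 26.0 CPM to 31.3 to 39.5 CPM, by 0.56 on the log2 scale (SE 0.13, 1.47-fold, edgeR adjusted p = 0.0318). It was 1 of 10 members to pass, against 11.3% of all 12250 genes, and 0 were also changed 1.5-fold (5.31% of all genes), though DESeq2 called 2, *Jag2* and *Hey1*. At an unadjusted p under 0.05 there were 5 of the 10 and 32.7% of all genes. *Notch4* no longer passed without E11.5 control 1 (adjusted p = 0.0534) or 3 (0.0859) or E12.5 control 1 (0.113) or 2 (0.126), with limma (adjusted p = 0.0513 to 0.0517), with all 12 libraries in 1 fit (0.115) or with sex as a term (0.43, adjusted p = 0.528), and the male E12.5 control had 31.3 CPM against 20.6 to 26.0 CPM in the E11.5 controls, all male.

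*Dll4* and *Jag2* came next to the threshold. *Dll4* went from 11.8 to 15.1 CPM at E11.5 to 17.9 to 19.2 CPM at E12.5 in controls (0.46, SE 0.13, adjusted p = 0.0521) and *Jag2* from 9.82 to 15.4 CPM to 17.1 to 22.03 CPM (0.59, SE 0.17, adjusted p = 0.0522). The stages did not overlap for *Notch4*, *Dll4* and *Jag2*, all higher at E12.5, against 18.6% of all genes higher and 37.4% in either direction. *Hey1* had the largest estimate, -0.74 (SE 0.27, adjusted p = 0.0919), from 25.4 to 39.4 CPM to 13.0 to 27.0 CPM, and passed the test without E12.5 control 3 (-1.15, adjusted p = 0.0188). Without E11.5 control 2, *Notch1* (0.72, adjusted p = 0.00296), *Dll4* (0.54, 0.0207) and *Jag2* (0.75, 0.0111) passed as well. The median of the members was 0.28, against 0.0095 for all genes.

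In mutants 0 of 10 members passed the edgeR test between the stages (0.523% of all genes did), with 0 at an unadjusted p under 0.05 (9.13% of all genes) and 0 called by DESeq2. The stages overlapped for all 10 in mutants, while 17.3% of all genes did not overlap. *Notch4* gave 0.13 (SE 0.24), *Dll4* 0.05 (SE 0.18), *Jag2* 0.39 (SE 0.28) and *Hey1* -0.35 (SE 0.22), and the median was 0.11. These comparisons use the same libraries as those of the genotypes, so a high value in E11.5 mutants enters both. Tested directly, the stage difference between the genotypes was -0.44 for *Notch4* (SE 0.30, adjusted p = 0.954), -0.41 for *Dll4* (SE 0.23, adjusted p = 0.954) and -0.38 for *Notch1* (SE 0.31, adjusted p = 0.954), so a rise in controls alone was not shown.

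**Figure D5:**
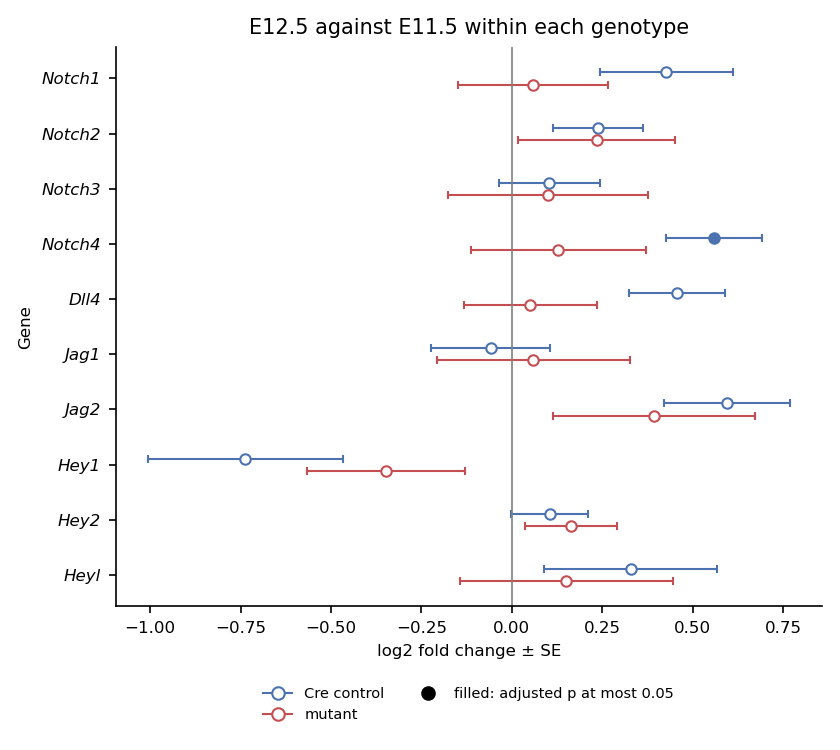
Log2 fold change of E12.5 against E11.5 for the 10 genes within controls and within mutants, with the standard error of the edgeR fit. The filled point is *Notch4* in controls (0.56), the one value that passed the test.

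Of the pathway list 6 of 59 genes rose and 0 fell from E11.5 to E12.5 in controls, against 5.5% and 5.84% of all genes, and 4 of them were called changed (5.31% of all genes). The called genes, named after their values had been seen, were the ligand-activating ubiquitin ligase gene *Neurl1b* (0.65, SE 0.16), the acetyltransferase gene *Crebbp* (0.74, SE 0.18), the corepressor gene *Spen* (0.65, SE 0.17) and *Bmp10*, the growth factor of trabecular and atrial myocardium (1.31, SE 0.33). *Bmp10* went from 7.37 to 14.3 CPM to 14.6 to 36.6 CPM. The count of 4 fell to 0 with sex as a term and without E11.5 control 3 or E12.5 control 1 or 2, to 1 without E11.5 control 1, and rose to 7 without E11.5 control 2. The calls over all genes in these fits are not given, so the shifts cannot be read as particular to the list. In mutants 0 of 59 passed the edgeR test (0.523% of all genes), with 5 at an unadjusted p under 0.05 (9.13% of all genes) and 1 called by DESeq2.

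The genes with the most similar pattern to each member were found by Pearson correlation of log2 CPM over the 12 libraries. They were sought among 8723 autosomal genes with a mean of at least 5 RPKM. The correlations are a description with no test, since the 12 libraries differ in genotype, stage and depth. *Notch1* was followed most closely by *Slc7a1* (r = 0.968), the endothelial cadherin *Cdh5* (0.961) and *Tspan18* (0.96). *Dll4* was followed by *Esam* (0.926), *Mmrn2* (0.92) and *Gab1* (0.90), and *Notch4* by *Thsd1* (0.89), the endothelial *Pecam1* (0.885) and *Slc22a23* (0.882). *Cdh5*, *Esam* and *Pecam1* belong to the endothelial marker list above. The genes nearest to *Notch2* were *Plxnb1* (0.949), *Gpr125* (0.948) and *Cdc14b* (0.932), and those nearest to *Hey2* were *Zfp617* (0.893), *Klf11* (0.869) and *S100a16* (0.868). For *Heyl* they were *Leprel2* (0.829), the elastin gene *Eln* (0.798) and *Amotl2* (0.78), and for *Jag2* *Nfe2l1* (0.947), *Frem2* (0.93) and *Ptgfrn* (0.927). The nearest gene to *Notch3* was *Man1b1* (0.87), to *Jag1* *Tenm3* (0.822) and to *Hey1* *Arhgap1* (0.874).

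The files place the 10 genes on mouse build mm10. A length in bases for each gene was recovered from the deposited values together with the counts. The common scale of the lengths was set by exonic lengths in GENCODE vM21, which 904 of the 17827 recovered lengths equalled. *Notch1* lies on chromosome 2 from 26457903 to 26516663, *Notch2* on chromosome 3 from 98013538 to 98150367, *Notch3* on chromosome 17 from 32120820 to 32166880 and *Notch4* on chromosome 17 from 34564268 to 34588503. *Dll4* lies on chromosome 2 from 119325784 to 119335962, *Jag1* on chromosome 2 from 137081456 to 137116644 and *Jag2* on chromosome 12 from 112908590 to 112929495. *Hey1* lies on chromosome 3 from 8663362 to 8667039, *Hey2* on chromosome 10 from 30832359 to 30842801 and *Heyl* on chromosome 4 from 123233556 to 123249875. The lengths used for RPKM run from 2205 bases for *Hey1* to 10506 bases for *Notch2*.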

How the data were processed

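RNA-Seq of 12 heart libraries was analysed. The sequencer is named differently in the study's methods and in the deposited design text. Per the labels, reads were aligned with Bowtie2 to mm10 and tested with DESeq; the counting program, annotation and use of strand are not given in the sources used here. The authors deposited values named RPKM, treated here as a score because each is a count multiplied by gene length and a library factor, and the average count of each group (an expected count, since a mean need not be whole). Their comparison columns (log2 fold change, z score, p-value, adjusted p-value) were not used.

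Counts were recovered from both tables for 17827 of 19424 genes, within 3.93e-10 of whole numbers, and 1597 genes had no count. Library totals ranged from 11994148 to 17483982. Counts were scaled by TMM and tested in edgeR 4.0.16 (quasi-likelihood, R 4.3.3) on genes with a mean of at least 0.5 RPKM. A gene passed when p, adjusted over all genes tested by Benjamini and Hochberg, did not exceed 0.05, and was called changed with a fold of 1.5 or more as well. The both-stage fit had stage as a term, and the difference between stages was its own contrast. Exact permutations used log2(CPM + 0.5). Alternatives were DESeq2 1.42.0, limma 3.58.1, other filters and scalings, a sex term, a replicate block, 1 fit of all libraries and leaving out each library. The fits were tested on simulated data.

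The members, gene lists and tests were chosen with earlier results of these data known. Named were all members, pathway genes that passed at E11.5, E12.5 or over both stages or, under 5 of these, the 5 with the lowest p over both stages, the 3 genes most correlated with each member, and marker lists. Replicate pairs differed by more than sampling noise. In marker lists whose tests are not all given above, cardiomyocyte and ventricular myocardium genes had 0 of 5 and 0 of 4 passing in each genotype comparison. Atrial myocardium and epicardium had 0 of 6 each, and skeletal muscle 0 of the 1 testable. Liver had 1 of 4 higher over both stages, erythroid 6 of 8 lower at E12.5, and neural crest and neurons 1 of 2 tested higher at E12.5. Endocardium had 1 of 4 higher over both stages. Mural and smooth muscle had 2 of 7 lower at E12.5 and 1 of 7 in each direction over both stages. No marker was at 0 in all libraries.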

Additional observations from a re-analysis of the deposited data

How the results depend on the processing

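The number of members called changed was 0 in each of the 6 comparisons. Without the 1.5-fold requirement it was 1 at E12.5, 1 over both stages and 1 between stages in controls. With sex as a term it was 1 over both stages (*Notch2*). Between stages in controls it was 2 with DESeq2, 1 with the replicate block and 1 with no low-count filter. Leaving out 1 library gave 0 to 1 at E12.5 (1 without control 3), 0 to 1 over both stages (1 without E11.5 mutant 1) and 0 to 2 in controls (2 without E11.5 control 2 or E12.5 control 3). For the pathway list, called 0 times at E11.5, the count was 1 without a filter, 2 with DESeq2, 1 with the replicate block and 2 with all 12 libraries in 1 fit. At E12.5 leaving out 1 library gave 0 to 1 (1 without control 3). Over both stages, with 1 called, it was 2 without the fold requirement, 0 at a mean of at least 5 RPKM (*Dlk2* was then not tested), 0 with limma on log2(RPKM + 1), and 1 to 2 leaving out 1 library (2 without E12.5 mutant 2). Between stages in controls, with 4 called, it was 2 with limma on log2(RPKM + 0.1), 0 with the sex term, 1 with all libraries in 1 fit and 0 to 7 leaving out 1 library, and in mutants 1 with DESeq2 and 0 to 1 leaving out 1 library (1 without E11.5 mutant 1). The calls over all genes in these alternative fits are not given here, so the shifts in count cannot be read as particular to these genes. The cause was not tested.

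Replicate numbers paired only some of the libraries. The same-number correlations of deviations from group means were -0.048, 0.444 and 0.31 between genotypes at E11.5 and 0.021, 0.055 and 0.0041 at E12.5. The control library correlated best with the mutant of its own number for replicates 2 and 3 at E11.5 and for replicate 2 at E12.5. With the block the edgeR *Notch2* changes were -0.56 (E11.5, adjusted p = 0.216), -0.50 (E12.5, adjusted p = 0.0131) and -0.53 (both stages, adjusted p = 0.0128).

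Log2 fold changes reversed only for values that had passed no test. With the sex term *Notch1* (-0.040) and *Jag2* (-0.15) at E11.5, *Notch1* at E12.5 (-0.0028), *Hey1* over both stages (0.0092), *Jag1* (0.19) and *Hey2* (-0.021) between stages in controls and the *Notch2* stage difference (0.19) changed sign. With limma at pseudocounts of 0.5, 0.1 and 1 RPKM *Notch1* at E12.5 was -0.0066, -0.0073 and -0.0059, *Dll4* at E12.5 -0.00084, -0.0015 and -0.00019 and the *Notch2* stage difference 0.031, 0.044 and 0.018. The block gave -0.0074 for *Notch1* and -0.0016 for *Dll4* at E12.5 and 0.042 for the *Notch2* stage difference, 1 fit of all libraries -0.012 and -0.0066 for *Notch1* and *Dll4*, and median-ratio scaling -0.0012 for *Notch1*. Leaving out 1 library gave, at E11.5, -0.41 to 0.17 for *Notch3* and -0.069 to 0.24 for *Jag2*, and at E12.5 -0.12 to 0.13 for *Notch1*, -0.17 to 0.11 for *Notch3*, -0.12 to 0.10 for *Dll4*, -0.24 to 0.0070 for *Jag1*, -0.51 to 0.11 for *Jag2*, -0.12 to 0.54 for *Hey1* and -0.16 to 0.0040 for *Dlk1*. Over both stages it gave -0.21 to 0.056 for *Notch3*, -0.18 to 0.095 for *Jag2* and -0.21 to 0.072 for *Hey1*, between stages in controls -0.040 to 0.22 for *Notch3* and -0.20 to 0.13 for *Jag1*, in mutants -0.084 to 0.33 for *Notch4* and -0.074 to 0.21 for *Dll4*, and -0.18 to 0.30 for the *Notch2* stage difference. *Notch2* at E12.5 also missed the threshold with limma (adjusted p = 0.0563 to 0.0581) and with all libraries in 1 fit (0.235), and had 0.00101 with DESeq2.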
